A study of Mus musculus with 20 samples.

Results

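H3K27me3 peaks that were still called with exogenous JMJD3 at day 5 of reprogramming, and no longer called with it at day 10, were described. They were defined by position. Each was a peak of day 10 wild-type (WT, Jmjd3+/+) cells with a FLAG control vector. It overlapped, by at least 1 bp, a peak of both day 5 WT lists (FLAG and Jmjd3 overexpression), and it overlapped no peak of day 10 WT cells with Jmjd3 overexpression. This rule chose 894 of 5131 day 10 WT FLAG peaks (17.4%), out of 53171 H3K27me3 peaks in 10 lists. They are called late-lost peaks. The 1609 peaks that met the same day 5 conditions and were still called at day 10 with JMJD3 are called kept peaks. In all, 59.6% of day 10 WT FLAG peaks were absent from the day 10 WT JMJD3 list, and 35.7% of those present in both day 5 lists were. Both shares follow from the rule and are descriptions.

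Peak lists from chromatin immunoprecipitation and sequencing (ChIP-seq) were used for 14 of 20 mouse samples, with 1 library per group. Mouse embryonic fibroblasts (MEFs) of an early passage were either untreated (day 0) or infected with reprogramming viruses (OSKM, for Oct4, Sox2, Klf4 and c-Myc) in medium with vitamin C. The infected cells were collected at day 5 or day 10 with a FLAG vector or with exogenous Jmjd3. By the labels, WT cells were of strain C57BL/6J-OG2, which carries an Oct4-GFP reporter, and Jmjd3-/- (KO) cells were of strain C57Bl6J and lacked the gene from the germ line, so genotype and strain cannot be told apart. The study also describes WT and KO littermates that lack this reporter, and whether any of these libraries came from them is not given in the sources used here. The knockout itself is not checked by peak positions. Of the 10 H3K27me3 lists, 2 were from MEFs (WT and KO) and 8 from OSKM cells (each genotype, day and vector). KLF4 was mapped in day 5 WT cells with FLAG and with Jmjd3, and FLAG-JMJD3 in day 5 WT cells with OSKM or with a low amount of Klf4 (OSlowKM). Peak numbers per H3K27me3 list ranged from 3045 (day 10 WT JMJD3, the list whose absence defined the loss) to 6954 (WT MEFs). A peak missing from a list can reflect a shorter list, and no replicate check was possible. Whether same-day libraries shared a preparation was not given in the sources used here.

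H3K27me3 is written by Polycomb repressive complex 2, often over CpG-rich starts of developmental genes, which stay silent in cells that do not need them. JMJD3 (encoded by Kdm6b) removes methyl groups from this residue. In reprogramming, fibroblasts lose their own programme and later take on epithelial and then pluripotent gene expression, and KLF4 is an activator of epithelial genes.

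The late-lost peaks lay at sequences of very different CpG content. Stretches of 200 bases from inside 5 of them are shown, with CpG dinucleotides in capitals, because CpG density was lower in late-lost than in kept peaks. The first 4 are CpG-rich and the Foxh1 stretch is CpG-poor. All are from the plus strand of GRCm38 and avoid annotated untranslated regions.
Hes5 (Notch effector, chr4:154961467-154961666, 21 CpGs): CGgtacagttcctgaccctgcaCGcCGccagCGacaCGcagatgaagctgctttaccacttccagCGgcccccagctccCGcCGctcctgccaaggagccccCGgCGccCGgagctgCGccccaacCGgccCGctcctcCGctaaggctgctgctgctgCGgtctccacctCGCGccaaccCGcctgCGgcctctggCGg
Mycn (Myc family factor, chr12:12939737-12939936, 21 CpGs): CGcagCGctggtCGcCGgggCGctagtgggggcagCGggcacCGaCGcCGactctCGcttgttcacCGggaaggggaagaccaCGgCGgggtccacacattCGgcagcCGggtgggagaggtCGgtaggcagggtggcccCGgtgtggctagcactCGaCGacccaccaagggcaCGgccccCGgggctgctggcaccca
Epcam (epithelial adhesion protein, chr17:87636827-87637026, 25 CpGs): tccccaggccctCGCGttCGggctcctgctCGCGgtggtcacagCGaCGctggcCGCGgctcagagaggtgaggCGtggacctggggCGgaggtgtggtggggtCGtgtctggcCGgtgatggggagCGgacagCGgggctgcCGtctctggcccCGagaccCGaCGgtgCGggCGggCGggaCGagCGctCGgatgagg
Sall4 (pluripotency factor, chr2:168766827-168767026, 26 CpGs): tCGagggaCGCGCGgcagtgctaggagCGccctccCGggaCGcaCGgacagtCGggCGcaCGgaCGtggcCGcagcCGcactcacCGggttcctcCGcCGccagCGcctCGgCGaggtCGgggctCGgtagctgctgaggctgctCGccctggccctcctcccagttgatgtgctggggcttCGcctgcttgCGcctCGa
Foxh1 (partner of SMAD proteins in Nodal signalling, chr15:76668431-76668630, 3 CpGs): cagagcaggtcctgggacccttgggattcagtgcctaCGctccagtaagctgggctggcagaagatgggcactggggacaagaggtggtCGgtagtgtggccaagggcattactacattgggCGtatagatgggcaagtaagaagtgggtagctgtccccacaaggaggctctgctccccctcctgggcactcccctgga

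A further set is shown for KLF4. Of the 37 late-lost peaks that overlapped a KLF4 peak, 6 are shown by a stretch of 100 bases at the KLF4 peak, outside annotated untranslated regions, that held the core KLF motif. The motif searched was GGGNGTG on either strand, which reads CACNCCC on the other, and its matches are in capitals (GRCm38, plus strand).
Cacng4 (chr11:107793435-107793534): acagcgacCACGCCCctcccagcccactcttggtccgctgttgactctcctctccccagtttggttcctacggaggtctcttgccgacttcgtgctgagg
Mapt (chr11:104233096-104233195): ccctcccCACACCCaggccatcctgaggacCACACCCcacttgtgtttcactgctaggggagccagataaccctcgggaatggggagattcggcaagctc
Ndrg4 (chr8:95677945-95678044): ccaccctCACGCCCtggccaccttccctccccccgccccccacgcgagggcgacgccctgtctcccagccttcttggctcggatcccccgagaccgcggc
A4galt (chr15:83251778-83251877): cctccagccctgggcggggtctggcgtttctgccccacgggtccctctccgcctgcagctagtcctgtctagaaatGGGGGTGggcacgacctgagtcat
Klc3 (chr7:19404110-19404209): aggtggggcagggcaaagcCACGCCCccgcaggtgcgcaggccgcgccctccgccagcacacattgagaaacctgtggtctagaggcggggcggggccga
Srrm3 intron, nearest start Gm23268 (chr5:135835333-135835432): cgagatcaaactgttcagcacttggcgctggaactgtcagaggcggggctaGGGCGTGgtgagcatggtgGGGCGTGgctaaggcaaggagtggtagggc

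The scores below are from lists that chose the members and are descriptions. The score is that of the authors' peak calls. Its scale is not given in the sources used here, and the highest value is 200. The 894 late-lost peaks had a median day 10 WT FLAG score of 11.7 (quartiles 8.55 and 16.4), against 19.5 (12.6 and 29.6) for kept peaks and 10.5 for the whole list. Late-lost peaks were therefore ordinary peaks of their list, at a median percentile of 56.7, and kept peaks ranked at 79.6. Among peaks of either kind, the late-lost share was 61.4% in the lowest quartile of the list's scores and 17.96% in the highest. At day 5, the late-lost peaks stood at a median percentile of 65.3 in the FLAG list of 6428 peaks and 54.4 in the shorter JMJD3 list of 5064, and percentiles of lists of unequal length are not directly comparable.

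The absence at day 10 was a clear gap for most members and a small displacement for some. The nearest day 10 WT JMJD3 peak was a median of 68710 bp away and more than 100 kb away for 391 members. For 133 members it lay within 5 kb and for 58 within 1 kb, the closest 3 bp away. Just inside the day 5 condition, 30 members overlapped a day 5 peak by less than 100 bp, the smallest by 7 bp. Just outside the day 10 condition, 20 kept peaks overlapped their day 10 JMJD3 peak by less than 100 bp, the smallest by 3 bp, while the median overlap of kept peaks was 769 bp. The number of members depended on where each list was ended. It was 551 with the better-scoring 50% of each list, of which 288 were among the 894, and 362, all of them among the 894, when every list was cut to the length of the shortest. Membership also depended on the overlap rule. With an overlap of at least 50% there were 791 members, of which 614 were among the 894.

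The 20 highest-scoring late-lost peaks lay mostly at gene starts. Of these, 18 were within 5 kb of a transcription start site (TSS), with 70.9% of all late-lost and 64.3% of all day 10 WT FLAG peaks. A KLF4 peak overlapped 6 of them, with 4.14% of all late-lost and 4.58% of all day 10 WT FLAG peaks. For 3 of the 20 a day 10 WT JMJD3 peak was still called within 1 kb of the member, among them Adra2b, an adrenergic receptor gene (69 bp away), and Mapt, the tau gene (88 bp away). Adra2b scored 85.5 in WT MEFs, 58.4 and 98.6 in day 5 WT cells with FLAG and JMJD3, and 36.5 in day 10 WT FLAG. In day 10 KO cells it scored 35.6 and 37.4 with FLAG and JMJD3.

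At Hes5 (chromosome 4, 154961287 to 154962286, GRCm38), a target of Notch signalling in neural progenitors, the nearest day 10 WT JMJD3 peak was 8376 bp away. Hes5 scored 89.7 in WT MEFs, 117 and 44.4 in day 5 WT cells with FLAG and JMJD3, and 43.8 at day 10 with FLAG. In KO MEFs it scored 25.2, in day 5 KO cells 85.2 and 89.1, and in day 10 KO cells 30.6 and 22.9. This gene was thus called in each list but day 10 WT JMJD3. Cacng4, a regulatory subunit of calcium channels and glutamate receptors, had the same pattern, with scores of 50.0 in day 10 WT FLAG, 30.2 and 24.0 in day 10 KO cells and the nearest day 10 WT JMJD3 peak 120338 bp away. So had Tmem178b (46.6 in day 10 WT FLAG, 26.7 and 45.8 in day 10 KO) and Lrrn2, a neuronal leucine-rich repeat gene (44.5, then 22.6 and 19.8).

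Some high-scoring members were absent elsewhere too. Disp3, a relative of the hedgehog release factor Dispatched, scored 49.4 in day 10 WT FLAG but had no peak in KO MEFs. Hapln4, a link protein of the neuronal extracellular matrix, scored 33.8 in day 10 WT FLAG and had no peak in either day 10 KO list. The highest member far from any TSS, an intergenic peak on chromosome 11 (19026854 to 19027853) with a score of 37.6, was absent from KO MEFs and from day 10 KO FLAG and scored 8.07 in day 10 KO JMJD3. Of the 20, 14 were called in all 6 H3K27me3 lists that the rule did not use, as were 27.4% of all day 10 WT FLAG peaks. The 20 were chosen for a high score.

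**Figure D1:**
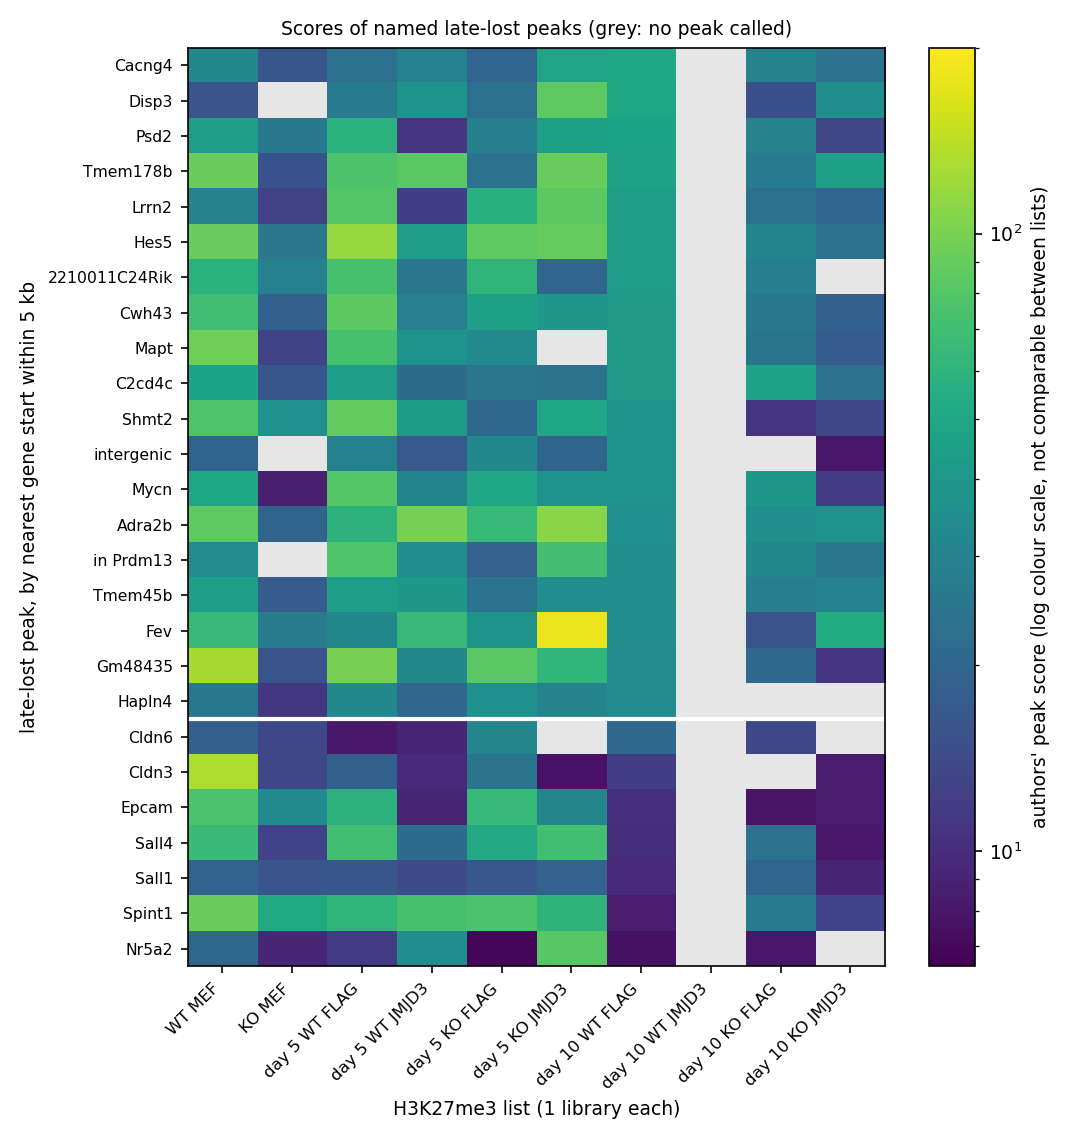
Scores of 19 of the 20 highest late-lost peaks (above the white line, in order of the day 10 WT FLAG score) and of further named epithelial and pluripotency peaks (below it) in the 10 H3K27me3 lists. Colour gives the authors' score on a log scale, which is not comparable between lists, and grey means that no peak was called. The day 10 WT JMJD3 column is empty by the rule, and 17 of the upper 19, chosen for a high score, are filled in each of the day 10 KO columns (FLAG 60.6% and JMJD3 57.2% over all day 10 WT FLAG peaks).

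By gene, 580 protein-coding genes had a late-lost peak within 5 kb of a TSS, of 2660 genes with any day 10 WT FLAG peak there (21.8%). For 478 of the 580 (82.4%), no day 10 WT JMJD3 peak remained within 5 kb of a TSS, compared with 41.2% of all 2660 genes, which the rule itself raises. A kept peak was also present at 45 of the 580, and 25 had more than 1 late-lost peak, among them Fgf5, Grik2 and Lhx5 (3 peaks), named after their values were seen. Among homeobox genes outside the Hox clusters, 31 of 100 genes with a peak had a late-lost one, and among Hox genes 8 of 33. The counts were 7 of 25 for forkhead genes, 14 of 42 for developmental zinc finger genes, 7 of 39 for bHLH genes, 4 of 10 for T-box genes, 2 of 10 for Sox genes and 1 of 5 for GATA genes. These shares ranged from 17.9% to 40.0% around the 21.8% of all genes, and no share is called particular to its list.

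The homeobox members included Pax6, a master factor of eye and neural development. Pax6 scored 13.5 and 49.9 in day 5 WT cells with FLAG and JMJD3, 21.2 in day 10 WT FLAG and 11.3 and 38.0 in day 10 KO cells. A day 10 WT JMJD3 peak lay 2981 bp from it. At the T-box gene Tbr1, a factor of cortical neurons, the nearest one was 2050669 bp away. Tbr1 scored 26.4 in day 10 WT FLAG, and 20.0 and 27.7 in day 10 KO cells. The 38 late-lost peaks at non-Hox homeobox genes had a median day 10 WT FLAG score of 9.83, against 11.7 for all members, and 7 of them had a day 10 WT JMJD3 peak within 1 kb, as did 58 of all 894. Of the 38, 21 were called in day 10 KO FLAG and 18 in both day 10 KO lists. The shares were 72.8% and 53.6% over all late-lost peaks, and 60.6% and 47.05% over all day 10 WT FLAG peaks.

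Signalling ligands had members at 7 of 53 genes (13.2%, with 21.8% over all genes), Bmp2, Bmp7, Bmp8b, Fgf12, Fgf5, Nodal and Wnt11, and none of these 7 had a day 10 WT JMJD3 peak left within 5 kb, like 82.4% of all genes with a late-lost peak. Nodal, a TGF-beta family ligand of early embryos and pluripotent cells, scored 44.0 in WT MEFs, 74.3 and 14.2 in day 5 WT cells, and 24.5 in day 10 WT FLAG. In KO cells Nodal scored 19.8 in MEFs, 43.2 and 35.1 at day 5, and 26.3 and 12.02 at day 10. All 8 ligand peaks were called in day 10 KO FLAG, with 72.8% of all late-lost and 60.6% of all day 10 WT FLAG peaks. Of these 8, 2 were absent from day 10 KO JMJD3, with 22.3% over all day 10 WT FLAG peaks called in day 10 KO FLAG. Receptors and secreted inhibitors had members at 7 of 44 genes (15.9%), and all 7 peaks were called in both day 10 KO lists, as were 53.6% of all late-lost and 47.05% of all day 10 WT FLAG peaks (53.0% of the latter were absent from 1 or both). Unc5a, a netrin receptor of axon guidance, scored 26.3 in day 10 WT FLAG and 30.6 and 6.67 in day 10 KO cells, and had no peak in either MEF list.

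Of genes that work in excitable cells, ion channels held members at 24 of 93 genes (25.8%) and transmitter receptors at 10 of 60 (16.7%), on either side of the 21.8% over all genes. Chrna7, a nicotinic acetylcholine receptor subunit, scored 31.1 in day 10 WT FLAG, but had no peak in either MEF list or either day 10 KO list. Grm8, a metabotropic glutamate receptor, scored 30.2 in day 10 WT FLAG and was called in all 6 unused lists, with 13.6 and 25.5 in day 10 KO cells. Of the 24 ion channel peaks, 22 were called in day 10 KO FLAG, and 4 of these were absent from day 10 KO JMJD3. Of the 12 transmitter receptor peaks, 7 were called in day 10 KO FLAG, and 1 of these was absent from day 10 KO JMJD3. Over all day 10 WT FLAG peaks, 60.6% were called in day 10 KO FLAG and 22.3% of those were absent with JMJD3. Over all late-lost peaks the shares were 72.8% and 26.4%.

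Epithelial and junction genes had a late-lost peak at 6 of the 23 genes with a peak (26.1%, with 21.8% over all genes), namely Cldn3, Cldn6 and Cldn9 (tight junction claudins that share 1 peak in the case of Cldn6 and Cldn9), Dsg2 (a desmosomal cadherin), Epcam and Spint1 (an inhibitor of epithelial serine proteases). None of the 6 had a kept peak or a day 10 WT JMJD3 peak within 5 kb. Most genes with a late-lost peak had neither, since 45 of the 580 had a kept peak and 82.4% had no day 10 WT JMJD3 peak there. At Epcam (chromosome 17, 87636327 to 87637326), the CpG-rich sequence printed above, the scores were 75.7 in WT MEFs, 59.1 and 9.24 in day 5 WT cells and 10.3 in day 10 WT FLAG. In KO cells Epcam scored 33.0 in MEFs, 64.5 and 30.9 at day 5, and 7.79 and 8.43 at day 10. The Epcam peak thus scored close to the median of its list (10.5) at day 10 with FLAG. Spint1, one of the KLF4-bound members, scored 93.0 in WT MEFs and 61.2 and 73.8 in day 5 WT cells, and 8.56 in day 10 WT FLAG. Cldn3 scored 130 in WT MEFs and 12.2 in day 10 WT FLAG, and Cldn6 18.9 and 20.99. Of the 5 epithelial peaks, all were called in both MEF lists (50.1% of all late-lost and 37.0% of all day 10 WT FLAG peaks). In day 10 KO FLAG 3 were called (72.8% and 60.6%).

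Pluripotency genes were members at 4 of 12 genes with a peak (33.3%, with 21.8% over all genes), Mycn, Nr5a2, Sall1 and Sall4. Of these, Nr5a2 also had a kept peak, and so a day 10 WT JMJD3 peak within 5 kb of a TSS, and the other 3 had neither. Mycn (chromosome 12, 12939337 to 12940336) scored 49.0 in WT MEFs, 79.7 and 30.5 in day 5 WT cells and 37.3 in day 10 WT FLAG. In KO cells Mycn scored 8.72 in MEFs, 49.7 and 37.0 at day 5, and 40.4 and 11.8 at day 10. Sall4 scored 67.1 in WT MEFs, 70.8 and 21.5 in day 5 WT cells and 10.2 in day 10 WT FLAG, with 23.4 and 8.19 in day 10 KO cells. Nr5a2, an orphan nuclear receptor that can replace Oct4 in reprogramming, scored 7.62 in day 10 WT FLAG, below the lower quartile of that list (7.89), and 8.16 in day 10 KO FLAG with no peak in day 10 KO JMJD3. All 4 peaks were called in day 10 KO FLAG (72.8% of all late-lost and 60.6% of all day 10 WT FLAG peaks). In both day 10 KO lists 3 were called (53.6% and 47.05%). Of the remaining lists, cadherins and protocadherins had members at 6 of 20 genes, mesenchymal transcription factors at 2 of 7 (Foxf1 and Meox1) and fibroblast genes at 1 of 7 (Icam1). No late-lost peak was found at the 2 CDK inhibitor genes or the 4 Polycomb and H3K27 demethylase genes that had a day 10 WT FLAG peak.

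The lists that the rule did not use allowed a comparison. In WT MEFs, 699 of 894 late-lost peaks were called (78.2%, 95% Wilson interval 75.4 to 80.8), against 89.3% of kept peaks and 56.0% of all day 10 WT FLAG peaks. The difference between late-lost and kept was -11.1 percentage points (Newcombe interval -14.3 to -8.08). In KO MEFs, a shorter list of 4113 peaks, the shares were 53.2%, 74.2% and 39.7%. Most late-lost peaks were thus at sites already marked in the starting fibroblasts, and 167 of them (18.7%) were in neither MEF list, with 8.64% of kept peaks and 41.2% of all day 10 WT FLAG peaks. Averaged over quartiles of the day 10 WT FLAG score, the difference from kept peaks was -7.74 points (-11.3 to -4.19) in WT MEFs. In KO MEFs it was -13.7 points (-18.0 to -9.29), and -20.96 points without that averaging. The intervals reflect counting error alone, and peaks close together share their surroundings.

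In day 5 KO cells, the late-lost peaks were called in 731 cases with FLAG (81.8%, with 60.2% over all day 10 WT FLAG peaks) and in 795 with JMJD3 (88.9%, with 63.4% over all). For kept peaks the shares were 95.2% and 97.6%. At day 10, KO FLAG held 651 (72.8%, 60.6% over all) and KO JMJD3 603 (67.4%, 57.2% over all), against 93.1% and 94.3% of kept peaks. The difference from kept peaks was largest among these 6 lists in day 10 KO JMJD3, at -26.8 points (-30.1 to -23.6). Averaged over score quartiles it was -22.95 points (-26.4 to -19.3). With all other day 10 WT FLAG peaks in place of the kept peaks, each of the 6 differences turned positive, from 12.4 points in day 10 KO JMJD3 to 30.9 points in day 5 KO JMJD3. Late-lost peaks thus stood between the kept peaks and the rest of the list. The rule favours this order, because members had to be called in both day 5 WT lists. Of the rest, 1737 were absent from the day 5 WT FLAG list, and 627 and 264 were in it but absent from day 5 WT JMJD3. The part of the rule in the differences was not tested.

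**Figure D2:**
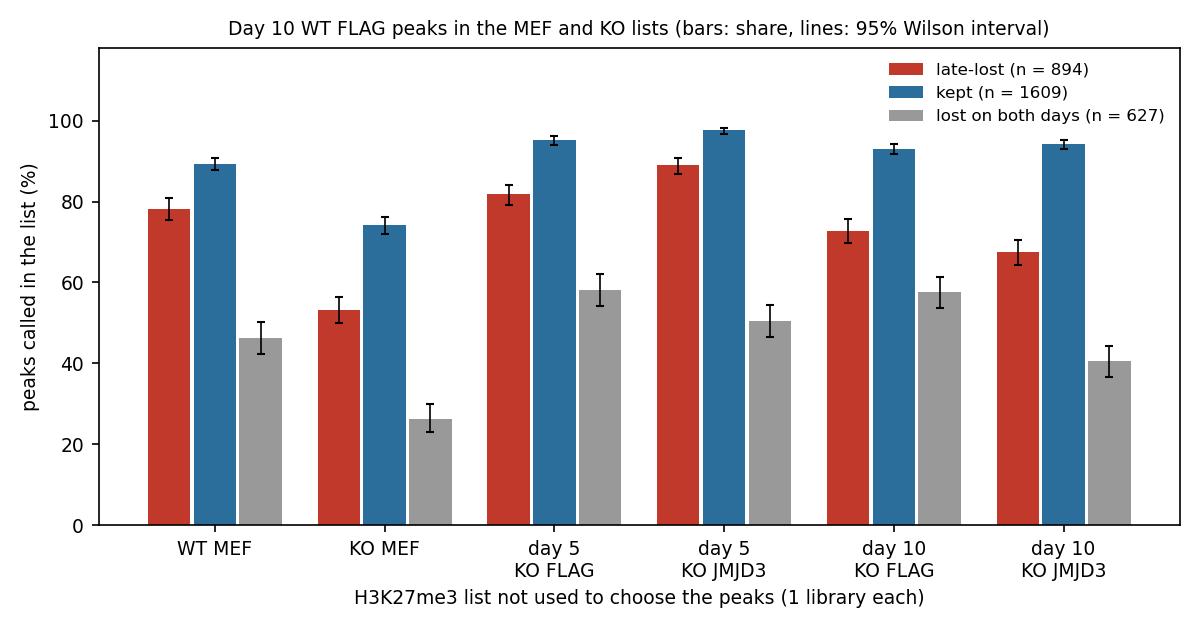
Share of late-lost, kept and lost-on-both-days peaks (percent, y axis) called in each of the 6 H3K27me3 lists that the rule did not use (x axis). Bars are shares and lines 95% Wilson intervals, for counting error only; the late-lost bar lies between the other bars in each list, for example 67.4% against 94.3% and 40.5% in day 10 KO JMJD3.

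In day 10 KO cells, exogenous JMJD3 could be set against FLAG at the same sites, in libraries the rule did not touch. Of the 651 late-lost peaks called in day 10 KO FLAG, 172 were absent from day 10 KO JMJD3 (26.4%), against 68 of 1498 kept peaks (4.54%). The difference was 21.9 points (18.4 to 25.5). Among all day 10 KO FLAG peaks 44.4% were absent from the JMJD3 list, and among day 10 WT FLAG peaks called in day 10 KO FLAG 22.3% were, so the late-lost share was 5.18 points (1.53 to 9.03) above that of all other day 10 WT FLAG peaks. At day 5, when the late-lost peaks were called in both WT lists by definition, 62 of 731 (8.48%) were absent from KO JMJD3, against 1.70% of kept peaks and 14.1% of all day 10 WT FLAG peaks called in day 5 KO FLAG.

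Peak strength moved with this result. The late-lost peaks had a median day 10 KO FLAG score of 13.6 and the kept peaks 21.6. Within quartiles of that score, the difference was 35.8 points (18.9 to 49.0) in the lowest, 22.2 in the second, 21.1 in the third and 10.4 (6.32 to 15.8) in the highest. Averaged over quartiles cut instead on the late-lost peaks' own day 10 KO FLAG scores, it was 19.5 points (15.8 to 23.3).

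**Figure D3:**
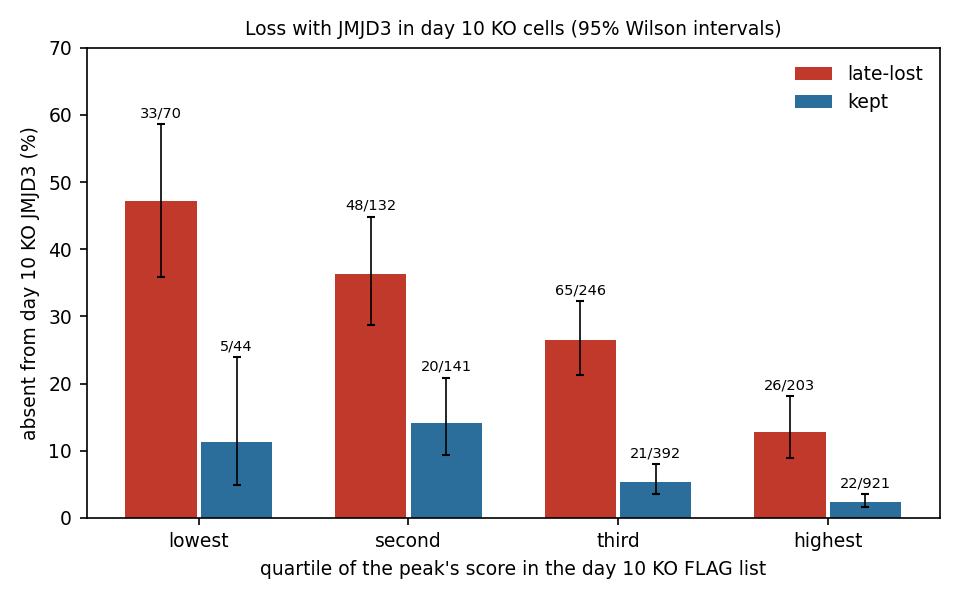
Share of peaks called in day 10 KO FLAG that were absent from day 10 KO JMJD3 (percent, y axis), for late-lost and kept peaks by quartile of the day 10 KO FLAG score (x axis). Bars are shares with 95% Wilson intervals and numbers are peaks; the late-lost share is above the kept share in each quartile, 33 of 70 against 5 of 44 in the lowest and 26 of 203 against 22 of 921 in the highest.

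Many members lost in WT cells were called in KO cells with exogenous JMJD3. Of the 894, 479 (53.6%) were called in both day 10 KO lists, 172 only with FLAG (19.2%), 124 only with JMJD3 (13.9%) and 119 in neither (13.3%). Over all day 10 WT FLAG peaks the shares were 47.05%, 13.5%, 10.1% and 29.3%. The members with FLAG only included 6 with the highest scores, at 2210011C24Rik, Pygo1, Vwc2, Foxj1, Adm2 and Espn. Foxj1, the master factor of motile cilia, scored 25.4 in day 10 WT FLAG, 33.0 in day 10 KO FLAG and had no peak in either JMJD3 list at day 10. Pygo1, a co-factor of Wnt signalling, scored 29.3 and 18.3 in the same FLAG lists, with a day 10 WT JMJD3 peak 453 bp away. Across all 6 unused lists, 275 late-lost peaks (30.8%) were called in every one, so that day 10 WT JMJD3 was the only list of 10 without them. That share was close to the 27.4% over all day 10 WT FLAG peaks, and for kept peaks it was 65.1% (1047 peaks). In none of the 6 were 10 late-lost peaks (1.12%), with 17.9% over all.

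Late-lost peaks also differed from the peaks that were already absent with JMJD3 at day 5. The comparison group was the 627 day 10 WT FLAG peaks that were in the day 5 WT FLAG list but in neither WT JMJD3 list, called lost on both days, and it was chosen after its values were seen. Of the late-lost peaks 78.2% were called in WT MEFs, of the group lost on both days 46.2%, a difference of 31.9 points (27.1 to 36.6). In day 5 KO cells, 45.2% of the FLAG peaks lost on both days in WT were absent with JMJD3, compared with 8.48% of late-lost peaks (-36.7 points, -42.2 to -31.2). At day 10 the shares were 49.0% and 26.4% (-22.6 points, -28.7 to -16.4). By the rule, late-lost peaks were called in day 5 WT JMJD3 and peaks lost on both days were absent from it. This selection favours more calls of late-lost peaks in other lists, and fewer absences with JMJD3 in KO cells. The median day 10 WT FLAG score was 9.30 for the group lost on both days and 11.7 for late-lost peaks. The parts of the rule and of the score gap in these differences were not tested.

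At the overlap itself, no difference in KLF4 between late-lost and kept peaks was detectable. A day 5 KLF4 peak (either list) overlapped 37 late-lost peaks (4.14%) and 78 kept peaks (4.85%), with 4.58% over all day 10 WT FLAG peaks. The difference was -0.709 points (-2.32 to 1.08), and at wider limits it was -1.58 points within 1 kb and -1.97 points within 5 kb, with intervals that also included 0. By contrast, 53 of 627 peaks lost on both days overlapped a KLF4 peak (8.45%), 4.31 points more than late-lost peaks (interval of late-lost minus lost on both days -6.998 to -1.86). The gap was wider within 1 kb (-8.61 points) and 5 kb (-10.6 points).

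**Figure D4:**
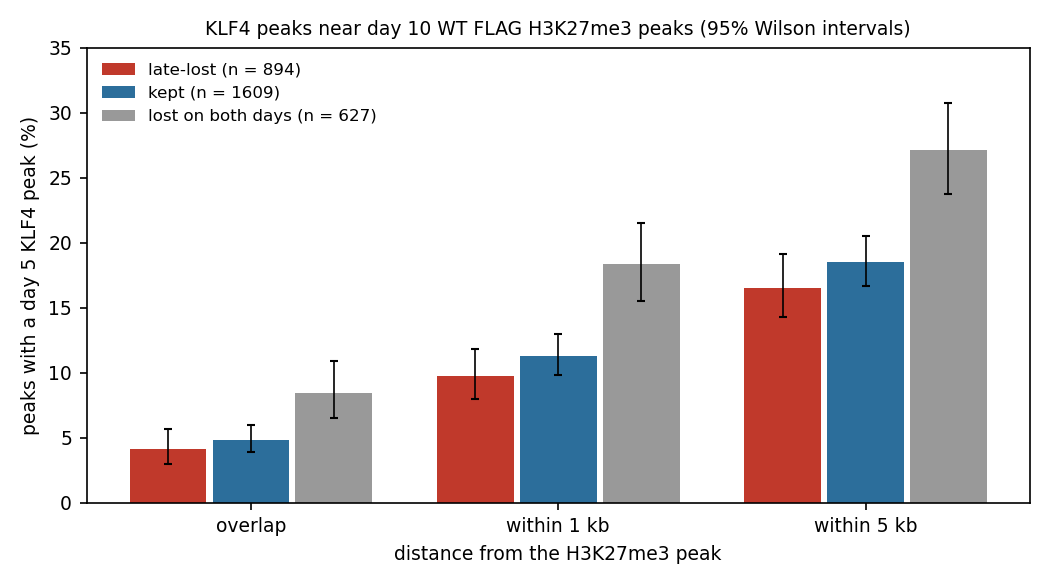
Share of H3K27me3 peaks (percent, y axis) that overlapped a day 5 KLF4 peak or had one within 1 kb or 5 kb (x axis), for late-lost, kept and lost-on-both-days peaks. Bars are shares with 95% Wilson intervals; late-lost peaks (4.14%, 9.73% and 16.6%) have intervals overlapping those of kept peaks and lie below peaks lost on both days (8.45%, 18.3% and 27.1%).

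Of the 37 KLF4 overlaps, 15 were in both KLF4 lists, 19 only in that of cells with Jmjd3 and 3 only in that of cells with FLAG. Of these members, 31 of 37 lay within 1 kb of a TSS, with 55.9% of all late-lost, 66.0% of kept and 48.0% of all day 10 WT FLAG peaks. Of the 37, 28 (75.7%) had CpG island-like sequence, against 227 of 857 late-lost peaks without KLF4 (26.5%). That difference, 49.2 points (33.1 to 60.5), was computed after the overlap had been listed. The same direction held in kept peaks (65.4% with KLF4 and 51.6% without) and in peaks lost on both days (62.3% and 19.5%). Cacng4, Mapt and the Prdm13 exon peak were among the 10 highest, as were Psd2, 2210011C24Rik, Gm48435, Espn and Gm10837. Members with lower scores, named after their values were seen, included Wnt11, Dlx4, Pitx3, Spint1 and Dsg2. The KLF motif GGGNGTG occurred in 22 of the 37, in 67.0% of all late-lost peaks, in 66.6% of kept peaks and in 63.9% of all day 10 WT FLAG peaks, each 1000 bp wide.

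FLAG-JMJD3 positions of day 5 OSKM cells fell on 3 late-lost peaks (0.336%), against 9 kept peaks (0.559%) and 0.721% of the whole list. The 3 were at Hpca, a neuronal calcium sensor, Bsn, the presynaptic scaffold Bassoon, and Shisa3, an inhibitor of Wnt and Fgf receptors, and the Hpca peak was the single late-lost peak with a position in OSlowKM cells. Hpca scored 28.4 and 9.23 in day 5 WT cells, 21.3 in day 10 WT FLAG and 30.2 and 27.9 in day 10 KO cells. At this number of sites a difference from kept peaks was not detectable (-0.224 points, -0.771 to 0.475). With 50 kb of flank, 38.7% of late-lost and 34.1% of kept peaks had a JMJD3 position (4.64 points, 0.723 to 8.60). The late-lost share was near that of all day 10 WT FLAG peaks (37.7%) and below that of peaks lost on both days (46.9%, a difference of -8.19 points, -13.2 to -3.14). JMJD3 was mapped at day 5 only, and binding at day 10 was not analysed here.

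In position, late-lost peaks were less tied to gene starts than kept peaks. Of the 894, 634 (70.9%) were within 5 kb of a TSS, against 81.6% of kept peaks and 64.3% of the whole list, a difference from kept of -10.7 points (-14.2 to -7.20). Within score quartiles the difference from kept was -7.59, -7.81, -9.81 and -4.88 points from lowest to highest, with an interval off 0 in the third only. Averaged over these quartiles it was -7.8 points (-11.7 to -3.9). With all lists at the length of the shortest it was -5.29 points (-10.2 to -0.837). Against all other day 10 WT FLAG peaks it was 8.04 points. Where late-lost peaks were near a TSS, their midpoints lay a median of 386 bp downstream of it, and 72.2% were downstream, as were 74.8% of kept peaks. Midpoints were in introns for 43.6% (43.0% of kept and 44.4% of all day 10 WT FLAG peaks) and between genes for 28.0% (19.6% and 30.4%). They were in coding exons for 15.5% (22.3% and 13.9%) and in untranslated regions for 9.06% (11.3% and 8.13%). Most were single peaks: 69.8% had no other day 10 WT FLAG peak within 10 kb, and 68.6% of kept peaks did not. They were on 20 chromosomes, with 5 on X and 0 of 2 peaks on Y, and made up between 25.3% (chromosome 19) and 43.5% (chromosome 13) of late-lost plus kept peaks on the autosomes. None of the 894 was at least 50% repeat-masked, with 0.682% over all day 10 WT FLAG peaks. A count of 0 allows a share of up to 0.336% by a limit of 3 counts, and 0.428% by the Wilson interval.

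Late-lost peaks were poorer in CpG than kept peaks. CpG island-like sequence, meaning at least 50% G and C and a ratio of observed to expected CpG of at least 0.6 over the peak, was found in 255 late-lost peaks (28.5%) and 841 kept peaks (52.3%). The difference was -23.7 points (-27.5 to -19.8). The share over all day 10 WT FLAG peaks was 28.6%, so late-lost peaks matched the whole list and kept peaks stood above it. Median CpG density was 3.75 per 100 bp in late-lost and 5.40 per 100 bp in kept peaks. Near a TSS the island-like shares were 36.8% and 55.9%, and more than 5 kb away 8.46% and 36.2% (-27.7 points, -34.0 to -21.1). Since score moved with CpG content, the difference was taken again within score quartiles of the day 10 WT FLAG list, and it was -10.1 points in the lowest (-21.3 to 0.725) and -21.6 points in the highest (-28.7 to -14.0). In the examples printed above, Epcam had 11.2 and Foxh1 1.40 CpGs per 100 bp over their whole peaks.

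**Figure D5:**
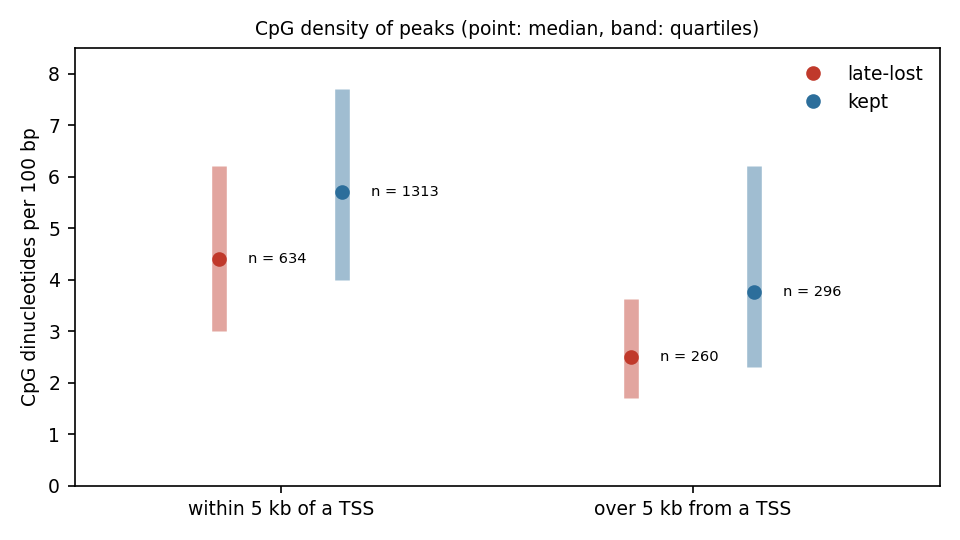
CpG dinucleotides per 100 bp (y axis) of late-lost and kept peaks within 5 kb of a TSS and farther away (x axis). Points are medians, bands run from the lower to the upper quartile, and n is the number of peaks; the late-lost median is lower at both distances, 4.40 against 5.70 and 2.50 against 3.75.

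Motifs of other factors were matched over the same 1000 bp on both strands. The SOX motif ACAATG was in 24.7% of late-lost and 20.0% of kept peaks (4.71 points, 1.32 to 8.19), with 26.8% over the whole list. The AP-1 motif TGANTCA was in 15.1% and 11.9% (16.98% over the whole list), and the OCT octamer ATGCAAAT in 1.68% and 2.30% (2.55%). Late-lost peaks had a median of 56.7% G and C and kept peaks 59.7%, which moves with how often such strings occur, and its part in these differences was not tested.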

How the data were processed

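H3K27me3, KLF4 and FLAG-JMJD3 peak lists of 14 libraries were used; 4 inputs and 2 H3K27ac samples were not used here. According to the study's methods and processing notes, the authors aligned reads to mm10 with bowtie2 and called peaks with DFilter (H3K27me3) or MACS2 (KLF4, JMJD3). Drosophila cells were a spike-in, and the sources used here do not say if it played a part in peak calling. The deposited H3K27me3 lists hold 1000 bp intervals with a score of unstated scale, the deposited KLF4 lists intervals without a score, and the deposited JMJD3 lists 1 bp positions. The number of reads per library was not used here, so the effect of depth on what was called is unknown.

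Lists were compared by overlap (Python 3.11.15, pandas 2.3.3, pysam 0.24.0) and checked against bedtools 2.31.1, with 0 peaks classed differently. On simulated lists, 1269 of 1269 planted late-lost peaks were recovered. TSSs and genes were from GENCODE M21 and sequence from RefSeq's GRCm38.p6, the same build as mm10. With 1 library per group no p-value was computed; shares carry 95% Wilson and differences 95% Newcombe intervals, not adjusted for the 51 measures compared. The members and lists were chosen with earlier results of these data known. Named peaks were the 20 highest by day 10 WT FLAG score, up to 4 per gene list, the 10 highest overlapping KLF4 or JMJD3, and the 6 highest in both day 10 KO lists or in day 10 KO FLAG only. A few of these are not reported here. Other named peaks and the printed sequences were chosen after their values were seen. Alternatives changed the overlap rule, list length, sex chromosomes, comparison peaks, score quartiles and the distances to sites and TSSs.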

Additional observations from a re-analysis of the deposited data

Results flagged for a closer look

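In KO cells, the number of late-lost peaks called moved in opposite directions with JMJD3 on the 2 days. At day 5, JMJD3 minus FLAG was 64 peaks (795 against 731), and at day 10 it was -48 peaks (603 against 651). There was 1 library per group, and the difference between the days was not tested. The whole lists moved the same ways, from 5643 to 6539 peaks at day 5 and from 5376 to 4878 at day 10, and the part of list length in the result was not tested.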

How the results depend on the processing

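Of the recomputed values, 107 kept their direction and their side of 0 (or, for the number of members, stayed within 1.5 times) and 16 did not. The number of members was 551 with the better-scoring 50% of each list and 362 with all lists at the length of the shortest. With all other day 10 WT FLAG peaks in place of kept peaks, the differences in calling became 26.9 points (WT MEF), 16.4 (KO MEF), 26.1 (day 5 KO FLAG), 30.9 (day 5 KO JMJD3), 14.8 (day 10 KO FLAG) and 12.4 (day 10 KO JMJD3), that in nearness to a TSS 8.04, and that in island-like sequence -0.105 (-3.28 to 3.22). This follows in part from the comparison groups. Kept peaks are called and island-like more often than the rest, and many of the rest were not called in both day 5 WT lists, as members had to be. The KLF4 difference, whose interval includes 0, became 0.0266 points over score quartiles and 0.0175 over deciles of the members' score. The JMJD3 difference, from 3 and 9 peaks, became 0.0453 with an overlap of at least 50%, 0.0524 over score quartiles, 0.0167 over deciles and -0.920 with the better-scoring 50% of lists (0 late-lost peaks, interval -1.80 to -0.0922); the cause was not tested. The day 10 KO loss ranged from 5.18 to 21.9 points over 10 alternatives, each interval above 0. Deciles, the thinning to 1 peak per 10 kb, the day 10 KO score quartiles and the comparison with peaks lost on both days were chosen after seeing the data. For the KLF4 share the last ranged from -10.6 to -3.32 points. Its differences in WT MEFs and in KO loss were computed under 1 setting. No paired analysis was possible because each group had 1 library, with no replicate numbers to match. FLAG and JMJD3 libraries match by genotype and day in 4 settings, of which 2 chose the members, and the remaining 2 pairs (KO, days 5 and 10) are given side by side with no test. Read depth, replicate spread and signal below the calling threshold are outside what peak lists show.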
